A study of Mus musculus with 12 samples.

Results

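The plasminogen activation genes examined here were Plat (tissue-type plasminogen activator), Plau (urokinase), Plaur (the urokinase receptor) and Serpine2 (protease nexin-1, an inhibitor), 4 of the 14907 genes in the deposited tables, chosen by gene name. Plasminogen is an inactive protease that the liver releases into blood. Tissue-type activator and urokinase cut it into plasmin, which dissolves fibrin, degrades matrix and activates other proteases and latent growth factors, and serpins such as Serpine2 block both activators. Fibroblasts are known sources of activators, receptor and inhibitors, and in tissue the balance between them sets where plasmin forms.

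The cells were primary mesenchymal cells of the small intestine of C57/Bl6 mice, the connective-tissue cells beneath the epithelium, cultured to passage 3 and sorted on GFP. The 4 groups of 3 libraries were MyD88ko with LPS, MyD88ko untreated, wt with LPS and wt untreated, and the LPS groups received 2 µg/ml of E. coli LPS, a component of the bacterial outer membrane, for 6 hours. All groups were serum starved overnight and carried floxed Myd88 alleles (MyD88F/F) and the RosamTmG reporter, which turns on GFP after Cre acts. The MyD88ko label adds ColVIcre, a Cre driven by collagen VI sequences, while the wt label has no Cre although the design text calls the wt cells Cre-positive. If the label is right, deletion and Cre cannot be told apart. Each reading conflicts with another stated fact. Sorting on GFP needs Cre in this reporter, but Cre would also act on floxed alleles, and wt cells expressed Myd88 (values below). The labels do not settle which reading holds. MyD88 is an adaptor through which the LPS receptor TLR4 activates NF-κB, and the comparisons ask what LPS changes with and without it. Replicates are numbered, and nothing says that they came from separate animals, so p-values measure the spread between libraries, which may be technical. All untreated samples have lower library codes than all LPS samples. Within each treatment, all MyD88ko samples have lower codes than all wt samples. The effects of this numbering cannot be told apart from those of LPS or of genotype.

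Values are 3′ read counts per gene that the authors normalized and rounded, from libraries in which each read comes from a transcript's end. Reads on the genes with values in all 12 libraries, estimated from the spacing of low values, came to 2.5 to 5.3 megareads per library. This estimate, like the reads per gene given below, holds up to a factor common to all libraries. The targeted gene, Myd88, was at 5 to 24 in MyD88ko with LPS and 8 to 14 in MyD88ko untreated, against 171 to 213 in wt with LPS and 98 to 103 in wt untreated. All 11 mesenchymal markers were detected in every group. Their summed value was 131248 to 141849 in MyD88ko with LPS, 89025 to 111330 in MyD88ko untreated, 70613 to 117284 in wt with LPS and 43643 to 101308 in wt untreated. Epithelial markers, of which 5 of 8 were listed, summed to 394 and 981 in wt untreated replicates 1 and 3, and to between 4 and 25 in the other 10 libraries. Of 7 endothelial markers, 2 were listed, with sums of 0 to 10, and Pecam1 and Cdh5 were not listed. Of 8 macrophage and leukocyte markers 5 were listed, with sums of 26 to 68, and Ptprc was not listed. Smooth muscle markers, 4 of 4 listed, summed to 17485 to 20604 in MyD88ko with LPS, 9321 to 10827 in MyD88ko untreated, 12079 to 14845 in wt with LPS and 5168 to 6313 in wt untreated. Glial and neuronal markers, 4 of 5 listed, summed to 516 to 1397 in MyD88ko with LPS, 321 to 512 in MyD88ko untreated, 1185 to 2539 in wt with LPS and 529 to 854 in wt untreated, and Tubb3 made up 95.9% or more of these sums in both MyD88ko groups. In bulk libraries, fewer cells of a type and less RNA per cell cannot be told apart.

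Of the 4 members, only Plat was called. Its level under LPS was 2.65-fold lower in MyD88ko than in wt cells, and within MyD88ko cells it was 2.08-fold lower with LPS than untreated. Plau, Plaur and Serpine2 were not called in any of the 5 comparisons, which does not show that they were unchanged. The call rests on a limma fit of log2(value + 1) over the 12 libraries, with p adjusted by Benjamini-Hochberg over 12385 genes and a threshold of 0.05; all 4 members entered it. The differences below are on that log2 scale, which understates changes of low genes such as Plau.

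**Figure D1:**
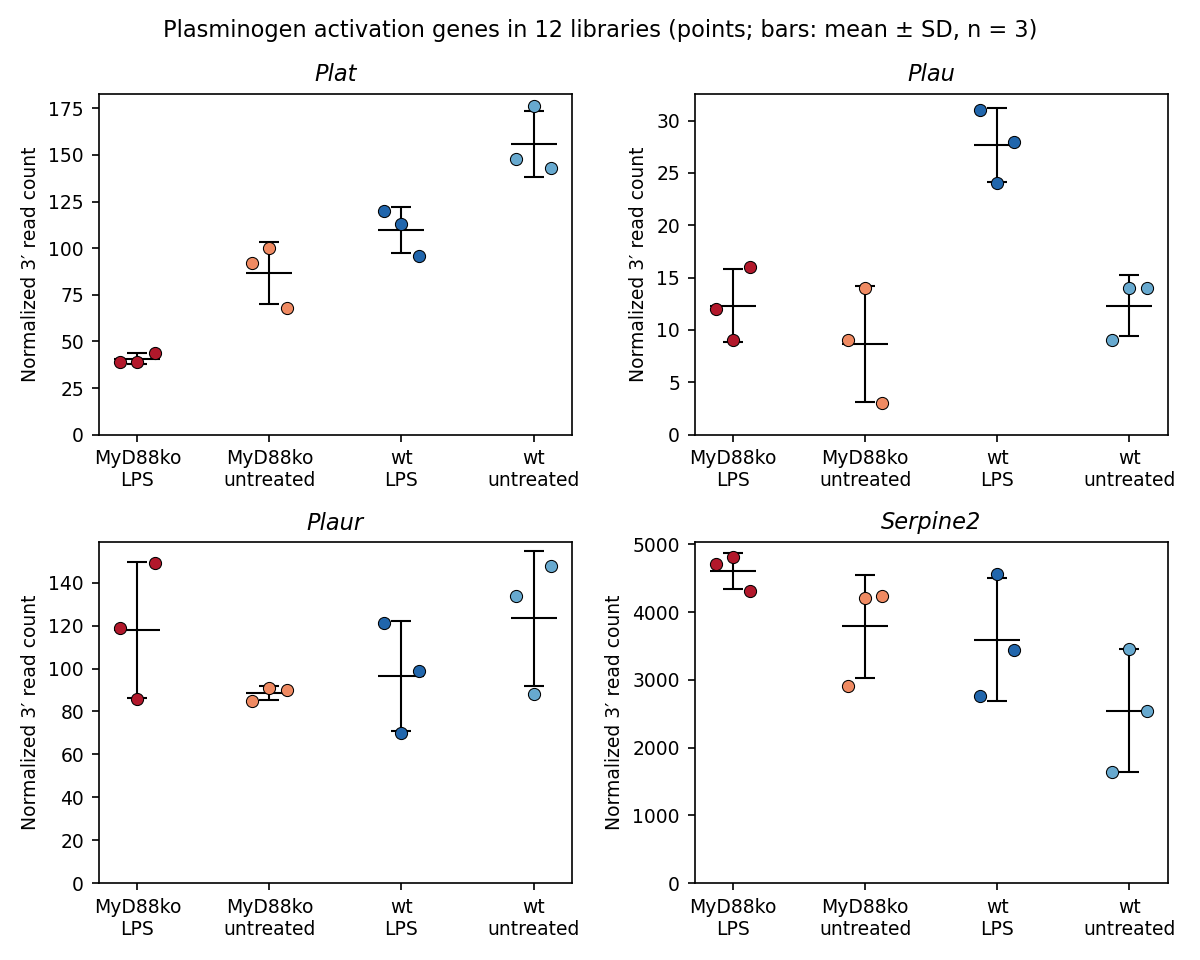
Normalized 3′ read count (linear axis from 0) of each gene in the 12 libraries, by group; points are libraries, and bars give the mean ± SD of 3. Plat lay at 39 to 44 in MyD88ko with LPS and at 143 to 176 in wt untreated, and Plau was above 20 in the 3 wt LPS libraries alone.

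Plat (ENSMUSG00000031538, mm10 chromosome 8, 22757727 to 22782844, plus strand, protein-coding) encodes the activator that works best on fibrin. Its normalized counts were 39, 39 and 44 in MyD88ko with LPS and 92, 100 and 68 in MyD88ko untreated. In wt cells it had 120, 113 and 96 with LPS and 148, 176 and 143 untreated. The MyD88ko LPS libraries were thus below all others and the wt untreated libraries above all others, while the middle groups overlapped, since the lowest wt LPS library (96) was below the highest MyD88ko untreated library (100). Group means were 40.7 ± 2.89 in MyD88ko with LPS, 86.7 ± 16.7 in MyD88ko untreated, 110 ± 12.3 in wt with LPS and 156 ± 17.8 in wt untreated (SD, n = 3 each).

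Between the genotypes under LPS, Plat differed by −1.41 ± 0.25 (log2 difference, MyD88ko minus wt, ± SE; limma adjusted p = 0.00414). It was 1 of the 4 members called lower there, where 1.04% of all genes tested were called lower and 1.49% in either direction, and the MyD88ko libraries were below every wt library, as for 8.31% of genes. The call held whichever library was left out (adjusted p = 0.00458 to 0.0308), and in a fit of only these 6 libraries (0.027). Untreated, the same difference was −0.85 ± 0.25 and was not called (adjusted p = 0.0929), although again no MyD88ko library reached a wt library, as for 9.89% of genes. Averaged over both treatments, a contrast added after the data were seen, Plat differed by −1.13 ± 0.18, or 2.19-fold lower in MyD88ko cells (limma, adjusted p = 0.000519), where 2.24% of genes were called lower and 3.8% in either direction.

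Within MyD88ko cells, Plat differed by −1.06 ± 0.25 on the log2 scale, LPS minus untreated (limma adjusted p = 0.0147), in a comparison with 3.4% of genes called lower and 5.98% in either direction. The groups did not overlap, as for 13.3% of genes, all lower. That call was lost without MyD88ko untreated replicate 1 (adjusted p = 0.0627) or 2 (0.0794), and in a fit of only these 6 libraries (0.0517). Within wt cells the difference was −0.50 ± 0.25 and was not called (adjusted p = 0.173), with no overlap between the groups, as for 17.4% of genes, all lower. The marker sums given above moved with these comparisons too. The smooth muscle sum was higher with LPS than untreated and higher in MyD88ko than in wt, with 3 of 4 genes higher for LPS in each genotype and 4 of 4 for genotype at each treatment. The mesenchymal sum was higher with LPS in MyD88ko, and Col1a1 made up 56.5% of it there; 9 of its 11 genes had a higher mean with LPS, and Pdgfrb and Vim a lower one. Between the genotypes with LPS, 6 of the 11 had a higher mean in MyD88ko and 4 (Pdgfra, Col3a1, Col6a1 and Col6a2) a lower one, with Pdgfra at 129 in MyD88ko and 451 in wt. The glial and neuronal sum was higher with LPS in both genotypes without overlap. The part of these markers in the Plat differences was not tested. The LPS responses of the genotypes were not shown to differ: the response in MyD88ko minus that in wt was −0.56 ± 0.35, with a 95% interval of −1.29 to 0.18 (limma adjusted p = 0.654). Averaged over both genotypes, also a contrast added after the data were seen, Plat was 1.72-fold lower with LPS (−0.78 ± 0.18, adjusted p = 0.00287), where 12.6% of genes were called lower and 25.1% in either direction. In neither average was another member called: for genotype Plau was at −0.88 ± 0.38 (adjusted p = 0.237), Plaur at −0.08 ± 0.20 (0.9) and Serpine2 at 0.50 ± 0.18 (0.141), and for LPS Plau was at 0.87 ± 0.38 (0.0993), Plaur at 0.01 ± 0.20 (0.973) and Serpine2 at 0.42 ± 0.18 (0.0966). Among the fits without 1 library, the Serpine2 averages were called only without wt untreated replicate 2 (limma adjusted p = 0.0282 for LPS and 0.0375 for genotype). That fit left wt untreated replicates 1 and 3, which carried the epithelial markers, and the part of these markers was not tested.

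Plau (ENSMUSG00000021822, chromosome 14, 20836662 to 20843388, plus strand, protein-coding) encodes urokinase, the activator that acts at the cell surface through its receptor. It had the fewest reads of the members, an estimated 4 to 35 per library. Normalized counts were 12, 9 and 16 in MyD88ko with LPS, 9, 14 and 3 in MyD88ko untreated, 31, 24 and 28 in wt cells with LPS and 9, 14 and 14 in wt untreated. The wt LPS libraries were above all others, and the other 3 groups overlapped. In wt cells Plau was at a ratio of 2.18, LPS over untreated (1.12 ± 0.54 log2, 95% interval 0.01 to 2.24), which was not called (limma adjusted p = 0.154). With LPS the MyD88ko level was at a ratio of 0.457 to wt (−1.13 ± 0.54, adjusted p = 0.409). In MyD88ko cells the log2 difference, LPS minus untreated, was 0.63 ± 0.54 (adjusted p = 0.544), and it was 0.089 without MyD88ko untreated replicate 3 and 1.04 without replicate 2. The wt LPS libraries did not overlap with the untreated wt libraries, as for 17.4% of genes, all higher, nor with the MyD88ko LPS libraries, where 8.31% of genes were all lower in MyD88ko. Untreated, MyD88ko minus wt was −0.64 ± 0.54 (adjusted p = 0.625), and −0.097 and −1.05 without those same libraries. The difference of the LPS responses was −0.50 ± 0.76 (95% interval −2.07 to 1.08, adjusted p = 0.874).

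Plaur (ENSMUSG00000046223, chromosome 7, 24462484 to 24475968, plus strand, protein-coding) encodes the lipid-anchored receptor that holds urokinase at the cell surface. Its normalized counts were 119, 86 and 149 in MyD88ko with LPS, 85, 91 and 90 in MyD88ko untreated, 121, 70 and 99 in wt cells with LPS and 134, 88 and 148 in wt untreated. All groups overlapped, and replicate 2 was the lowest of its group in 3 of the 4 groups. Differences were between −0.44 and 0.37 on the log2 scale in the 4 pairwise comparisons, each with an SE of 0.28, and limma adjusted p ranged from 0.425 to 0.755. The LPS responses had opposite signs, 0.37 (95% interval −0.22 to 0.96) in MyD88ko and −0.35 (−0.94 to 0.24) in wt. Their difference was 0.72 ± 0.40 (95% interval −0.11 to 1.56) and was not called (adjusted p = 0.591). Without both wt untreated replicates 1 and 3, which carried the epithelial markers, the wt response of Plaur was 0.10 and the untreated genotype difference 0.01; the part of the epithelial markers in these values was not tested.

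Serpine2 (ENSMUSG00000026249, chromosome 1, 79794197 to 79861180, minus strand, protein-coding) encodes protease nexin-1, which inhibits urokinase, tissue-type activator, plasmin and thrombin. Its normalized counts were 4707, 4811 and 4306 in MyD88ko with LPS and 2910, 4217 and 4240 in MyD88ko untreated. In wt cells they were 2768, 4567 and 3441 with LPS and 1648, 3460 and 2535 untreated. The order of group means, highest in MyD88ko with LPS (4608 ± 267) and lowest in wt untreated (2548 ± 906; SD, n = 3 each), ran opposite to that of Plat. Apart from the MyD88ko libraries with LPS, which were all above the untreated MyD88ko libraries (as for 12.2% of genes), neighbouring groups overlapped.

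No Serpine2 difference was called. Untreated, MyD88ko minus wt was 0.62 ± 0.25 (95% interval 0.09 to 1.14, limma adjusted p = 0.236), and with LPS 0.39 ± 0.25 (adjusted p = 0.579). The LPS difference was 0.30 ± 0.25 in MyD88ko (adjusted p = 0.534) and 0.53 ± 0.25 in wt (adjusted p = 0.154), and the difference of these responses was −0.23 ± 0.36 (adjusted p = 0.879). Replicate 2 of each wt group had the highest Serpine2 and also the highest mesenchymal marker sum. That sum was 117284 in replicate 2, against 70613 and 73949 in replicates 1 and 3, of wt with LPS, and 101308 against 52110 and 43643 in wt untreated; the part of these sums in the Serpine2 differences was not tested. Without wt untreated replicate 2, the wt LPS response of Serpine2 was 0.78 and was called (limma adjusted p = 0.045). Replicates 1 and 3, the wt untreated libraries then left, carried the epithelial markers.

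Sequence just upstream was at hand for Plaur and Serpine2, from RefSeq (GRCm38.p6), 250 bases before to 50 after the start site. Both are shown to set the inhibitor's promoter beside the receptor's, with matches to the AP-1 pattern TGANTCA in capitals. AP-1 is a factor that TLR4 signalling is known to activate, and it is known to act on the urokinase receptor gene. The first lies at chr7:24462233-24462532 on the plus strand and the second at chr1:79858616-79858915 on the minus strand, inside the deposited span of Serpine2, whose outer start it does not cover.
Plaur: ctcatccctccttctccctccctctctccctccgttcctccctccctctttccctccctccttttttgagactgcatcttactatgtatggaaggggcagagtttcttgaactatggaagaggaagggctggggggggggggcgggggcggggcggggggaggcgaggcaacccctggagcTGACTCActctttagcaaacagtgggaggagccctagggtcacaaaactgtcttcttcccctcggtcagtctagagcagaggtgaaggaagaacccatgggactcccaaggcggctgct
Serpine2: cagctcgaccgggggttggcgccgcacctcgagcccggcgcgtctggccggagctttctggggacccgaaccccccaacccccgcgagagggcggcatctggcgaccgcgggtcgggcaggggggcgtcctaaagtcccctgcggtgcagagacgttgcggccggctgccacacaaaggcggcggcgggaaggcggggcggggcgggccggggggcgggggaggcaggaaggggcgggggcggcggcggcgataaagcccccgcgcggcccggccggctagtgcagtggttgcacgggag
The Plaur promoter held 1 AP-1 match, whose first base lies at −69 from the start site, and the Serpine2 promoter held 0; 7.81% of 32851 promoters of this length held the pattern, read on both strands. The SP1 pattern GGGCGG, also read on both strands, matched at 3 places in Plaur and at 6 in Serpine2, some of them overlapping by 1 base, and 35.7% of promoters held it. No AP-1 match overlapped an SP1 match. G and C made up 59.3% of the Plaur bases shown and 77.7% of the Serpine2 bases.

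**Figure D2:**
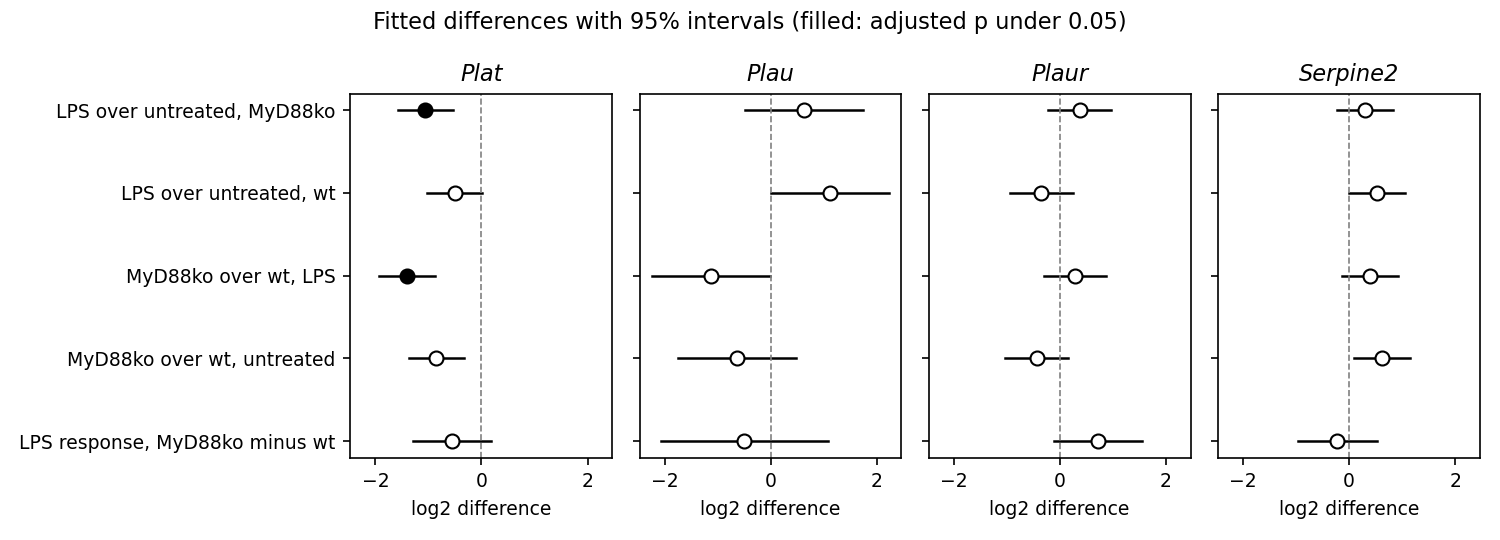
Fitted log2 difference (first-named group over second) with its 95% interval for each gene in the 5 comparisons; filled points have an adjusted p under 0.05. The filled points are Plat in the LPS response of MyD88ko (−1.06) and in MyD88ko over wt with LPS (−1.41).

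Counted over the members, 0 of 4 were called for LPS in wt cells (limma; 2 at an unadjusted p under 0.05), against 19.2% of all genes. For untreated MyD88ko against wt the count was likewise 0 of 4 (limma; 2 at an unadjusted p under 0.05), against 1.88% of genes, and for the difference of the LPS responses 0 of 4 (0 unadjusted), against 0.0161%. In the authors' deposited table, from DESeq, 0 of the 16 tests of the members had an adjusted p under 0.05 and 2 an unadjusted p under 0.05. Both of those were Plat: in the authors' deposited table its ratio was 0.377 for MyD88ko over wt with LPS (p = 0.00293, adjusted p = 0.285) and 0.475 for LPS over untreated in MyD88ko (p = 0.0272, adjusted p = 0.571).

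Levels can be set beside each other on the authors' length-divided scale, although reads from transcript ends need not rise with length. On it Serpine2 had the highest level in every group, with a mean of 0.553 in MyD88ko with LPS and 0.306 in wt untreated. Plat had a mean level of 0.00904 in MyD88ko with LPS and 0.0346 in wt untreated. Plau had a mean length-divided level of 0.00563 in both of those groups, and Plaur 0.0113 and 0.0119.

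The ratio of activator to inhibitor within a library, taken after adding 1 to both values, hardly depends on that library's scaling, and for Plat it combined 2 genes whose group means lay in opposite orders. The log2 ratio of Plat to Serpine2 was −6.88, −6.91 and −6.58 in MyD88ko with LPS and −4.97, −5.38 and −5.94 in MyD88ko untreated. It was −4.52, −5.32 and −5.15 in wt cells with LPS and −3.47, −4.29 and −4.14 in wt untreated. In each of the 4 pairwise comparisons, which reuse the same 4 groups, the groups did not overlap. Single genes did so in either direction for 15.8% to 34.8% of genes per comparison, and the share over gene pairs was not computed. For this ratio, MyD88ko minus wt was −1.79 with LPS and −1.47 untreated. LPS minus untreated was −1.36 in MyD88ko and −1.03 in wt. The exact two-sided permutation p was 0.1 for each, the smallest that 3 against 3 libraries allow, so this test cannot reach 0.05; the differences stand beside a pooled within-group SD of 0.401.

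The log2 ratio of Plau to Serpine2 was −8.50, −8.91 and −7.99 in MyD88ko with LPS and −8.19, −8.14 and −10.05 in MyD88ko untreated, against −6.44, −7.51 and −6.89 in wt cells with LPS and −7.37, −7.85 and −7.40 in wt untreated. MyD88ko libraries were below the wt libraries of the same treatment in both cases (mean differences −1.52 with LPS and −1.25 untreated, exact permutation p = 0.1 each). The share of gene pairs that do so was not computed. With 1 library left out, these differences ranged from −1.80 to −1.26 with LPS and from −1.58 to −0.62 untreated, beside a pooled within-group SD of 0.666. With and without LPS the groups overlapped (0.33 in MyD88ko, exact permutation p = 0.8, and 0.59 in wt, p = 0.3).

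**Figure D3:**
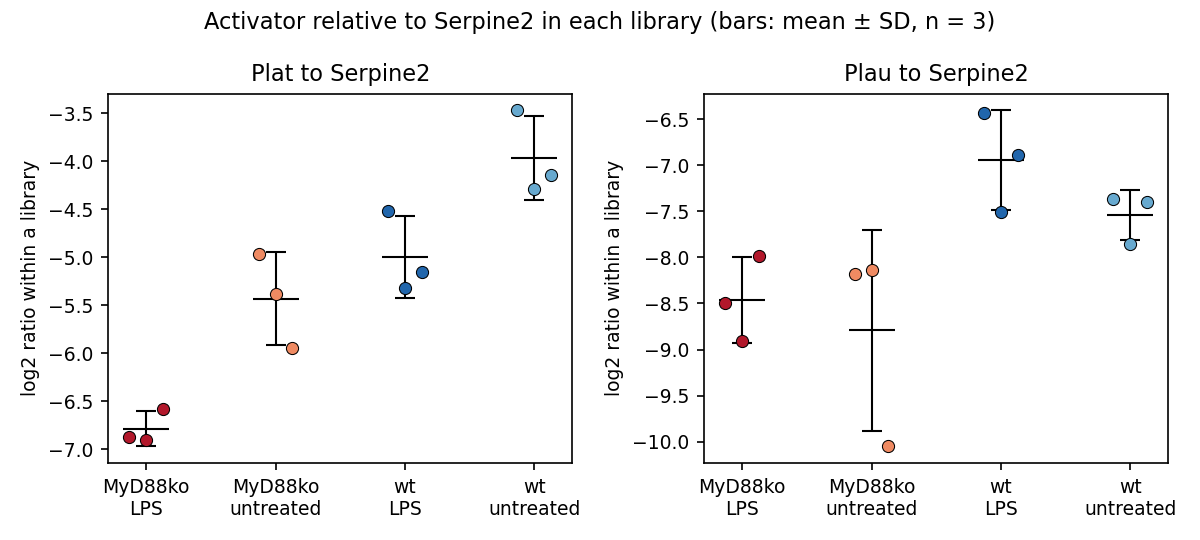
Log2 ratio of Plat (left) and Plau (right) to Serpine2 within each library, with mean ± SD of 3. MyD88ko LPS libraries have the lowest Plat ratios, −6.91 to −6.58, and wt untreated libraries the highest, −4.29 to −3.47.

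Related genes were counted in 4 lists, chosen with earlier results of these data known. Of 24 cofactors, receptors, clearance receptors and inhibitors of the plasminogen system, 16 could be tested; Plg, which encodes plasminogen itself, was not among the genes tested. In wt cells 2 of the 16 rose and 2 fell with LPS, with a median log2 difference of −0.0098 against 0.013 over all genes, where 19.2% of all genes were called. S100a10, which with annexin A2 binds activator and plasminogen at the cell surface, rose 1.85-fold (0.89 ± 0.19, limma adjusted p = 0.00281), with 890, 869 and 1071 in wt cells with LPS and 538, 438 and 556 in wt untreated. Itga3, an integrin subunit reported to pair with the urokinase receptor, rose 2.69-fold (adjusted p = 0.0191). Mrc2, a collagen-uptake receptor that associates with the urokinase receptor, fell 3.24-fold (adjusted p = 0.0156), and Igf2r, which binds both the urokinase receptor and plasminogen, fell 1.76-fold (adjusted p = 0.0312), both with overlapping groups.

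These calls in the partner list were unequally firm. The S100a10 call held whichever library was left out, whereas the Itga3 call was lost without wt LPS replicate 1 (adjusted p = 0.112) or wt untreated replicate 1 (0.0694) or 2 (0.0613). Mrc2 was not called without wt LPS replicate 3 (0.083) or wt untreated replicate 1 (0.0553) or 2 (0.0775), and Igf2r without wt LPS replicate 1 (0.0986) or 3 (0.179) or wt untreated replicate 2 (0.132). In limma, 0 of the 16 partners were called for LPS in MyD88ko, against 5.98% of all genes. Likewise 0 were called between the genotypes without LPS (against 1.88%) or with it (1.49%), and for the difference of the LPS responses (0.0161%). At an unadjusted p under 0.05 there were 1, 4, 4 and 3 partners in these comparisons. Among all 12385 genes tested there were 2600, 1923, 1486 and 1137. In the average genotype difference, added after the data were seen, 0 partners rose and 1 fell, against 3.8% of all genes called. This was Serpini1, a serpin, 2.15-fold lower in MyD88ko (limma adjusted p = 0.0251, and 0.00632 to 0.0861 with 1 library left out). In the average LPS response, also added, 2 partners rose and 1 fell, against 25.1%.

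Among 9 tested serpins that do not chiefly act on the activators, Serping1, the C1 inhibitor, which also inhibits plasmin, was lower in MyD88ko. It had 114, 177 and 81 in MyD88ko with LPS against 439, 936 and 546 in wt with LPS, a 5.12-fold difference (−2.36 ± 0.35, limma adjusted p = 0.00114), and 92, 164 and 67 in MyD88ko untreated against 378, 583 and 356 in wt untreated, 4.23-fold (−2.08 ± 0.35, adjusted p = 0.00353). The groups did not overlap at either treatment, where 8.31% of genes with LPS and 9.89% untreated were all lower in MyD88ko. The untreated Serping1 call was lost in limma without trend (adjusted p = 0.0535). With LPS, 0 of the 9 rose and 1 fell in MyD88ko against wt, where 1.49% of all genes were called; untreated, 0 rose and 2 fell, against 1.88% of all genes, the second being Serpina3g, at 6, 0 and 5 in MyD88ko and 18, 17 and 17 in wt. Serpina3g also rose with LPS, to 15, 24 and 37 in MyD88ko, against 6, 0 and 5 untreated (adjusted p = 0.00694, but 0.0509 in a fit of only these 6 libraries), and to 98, 163 and 99 in wt, against 18, 17 and 17 untreated (adjusted p = 0.00346, but 0.0731 without both wt untreated replicates 1 and 3). Its untreated genotype call (adjusted p = 0.0409) was lost in 9 of the 12 fits that left out 1 library, with adjusted p up to 0.168 (without MyD88ko untreated replicate 2). Serpinb6a, an intracellular serpin, rose 1.71-fold with LPS in wt cells (adjusted p = 0.0283), a call lost without wt LPS replicate 1 (0.152) or 3 (0.0612) or wt untreated replicate 1 (0.117) or 2 (0.0851).

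Of 9 tested coagulation genes and protease-activated receptors, 1 was called for LPS in wt cells, against 19.2% of all genes: Pros1, protein S, an anticoagulant cofactor, fell 2.29-fold with LPS (−1.19 ± 0.22, limma adjusted p = 0.000918). Its counts were 195, 201 and 262 in wt cells with LPS and 538, 598 and 384 in wt untreated. These did not overlap, as for 17.4% of genes, all lower, and the call held whichever library was left out. In MyD88ko cells Pros1 had 163, 180 and 235 with LPS and 290, 267 and 298 untreated (−0.58 ± 0.22, adjusted p = 0.137), also without overlap, as for 13.3% of genes, all lower. The difference between the responses was 0.61 ± 0.32 and was not called (adjusted p = 0.566). In limma, 0 of the 9 were called for LPS in MyD88ko, against 5.98% of all genes. Also 0 were called between the genotypes untreated (against 1.88%) or with LPS (1.49%), or for the difference of responses (0.0161%). At an unadjusted p under 0.05 there were 3, 4, 1 and 0 of the 9 in these comparisons. Among all 12385 genes tested there were 2600, 1923, 1486 and 1137.

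Of 14 tested genes whose products plasmin is known to cut or release, 4 fell and 2 rose in MyD88ko against wt with LPS, where 1.49% of all genes were called, and 2 fell untreated, against 1.88%. Mmp9, a gelatinase, had 55, 48 and 29 in MyD88ko with LPS against 261, 475 and 208 in wt with LPS (−2.77 ± 0.38, limma adjusted p = 0.000333), and it fell untreated as well (−2.94, adjusted p = 0.000299). Ltbp1, which anchors latent TGF-β in the matrix, had 896, 991 and 948 in MyD88ko with LPS against 423, 398 and 418 in wt with LPS, and rose 2.28-fold (adjusted p = 0.00489). Igfbp5, a plasmin-sensitive IGF binder, had 9, 1 and 0 in MyD88ko with LPS against 45, 182 and 95 in wt with LPS (adjusted p = 0.00212), and these calls for Mmp9, Ltbp1 and Igfbp5 held whichever library was left out. Mmp3, stromelysin-1, had 2, 22 and 0 in MyD88ko with LPS against 61, 91 and 36 in wt with LPS (adjusted p = 0.0157), and 3, 1 and 2 in MyD88ko untreated against 27, 21 and 42 in wt untreated (adjusted p = 0.0367). Its LPS call was lost without MyD88ko LPS replicate 1 or 3 or wt LPS replicate 1 or 2 (adjusted p of 0.0521 to 0.089), and its untreated call without any one of the untreated libraries except wt replicate 2 (0.0607 to 0.158), or without wt LPS replicate 1 (0.0575). The other called genes, Hgf (lower, adjusted p = 0.0176) and Pdgfc (higher, 0.04), both growth factors, are named outside the naming rule, after their values were seen. In wt cells, 2 of the 14 rose with LPS and 0 fell, against 19.2% of all genes called: Lamc1, a laminin chain (2.33-fold, adjusted p = 0.00562, but 0.24 without both wt untreated replicates 1 and 3), and Tgfb1, at 12, 38 and 35 in wt with LPS against 9, 2 and 6 in wt untreated (adjusted p = 0.0142). The Tgfb1 call was lost without wt LPS replicate 2 (0.0682) or 3 (0.0645) or wt untreated replicate 2 (0.0696). In MyD88ko cells 0 of the 14 were called with LPS, by limma (3 at an unadjusted p under 0.05), against 5.98% of all genes.

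**Figure D4:**
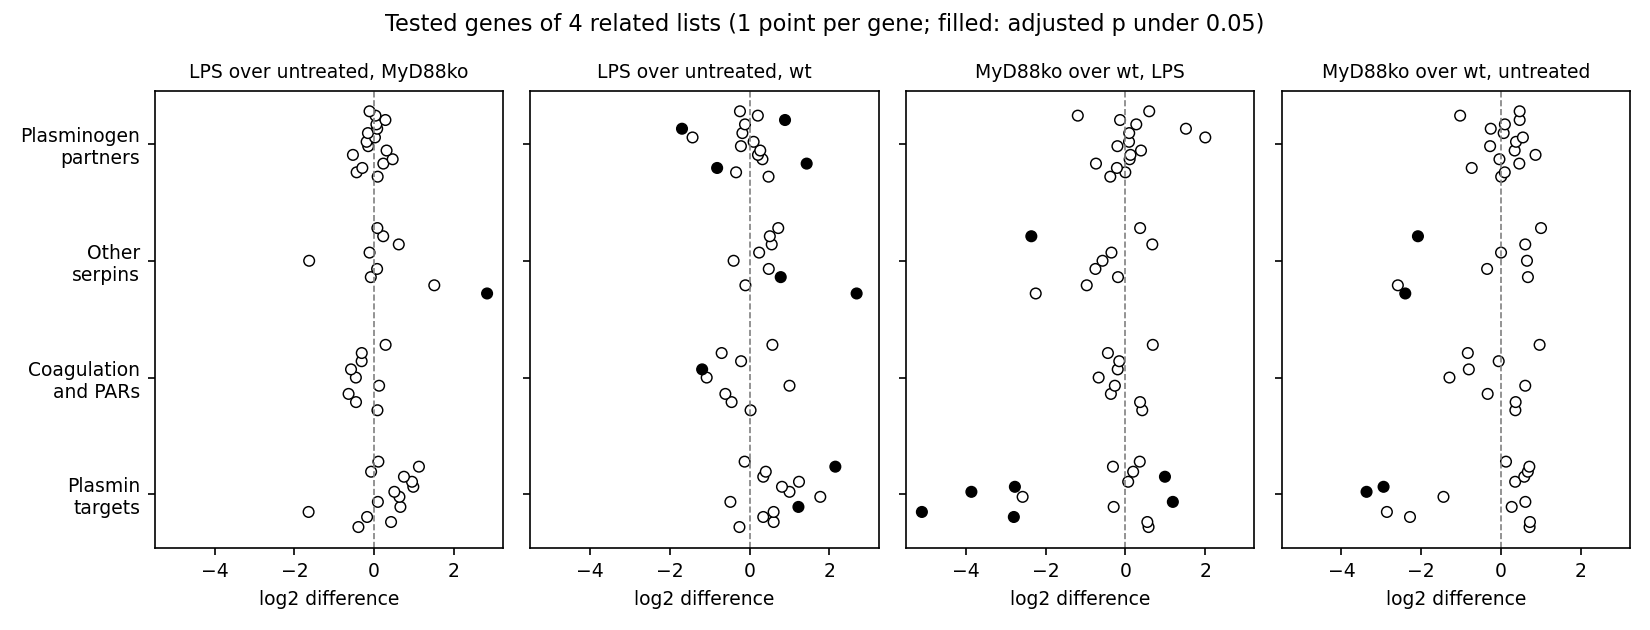
Fitted log2 difference (first-named group over second) of each tested gene of the 4 lists in 4 comparisons; filled points have an adjusted p under 0.05. Of the 16 plasminogen partners, 4 are filled, all for LPS in wt cells, and of the 14 plasmin targets, 6 are filled for MyD88ko over wt with LPS.

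The genes whose pattern over the 12 libraries was nearest to each member were found by the root-mean-square difference of log2 values, each gene centred on its own mean, among 9298 protein-coding genes (9299 for Plau). Nearest to Plat were Nkd2, a Wnt antagonist (0.34), Socs5 (0.35) and Impact (0.36), where the median gene was at 0.83. Nkd2 averaged 21.7 in MyD88ko with LPS, 40 in MyD88ko untreated, 50.7 in wt with LPS and 52.3 in wt untreated. Nearest to Plau were Hif1a, the hypoxia-inducible factor (0.36), Gnai1 (0.42) and Bid (0.42), and Hif1a averaged 521 in MyD88ko with LPS, 395 in MyD88ko untreated, 1149 in wt with LPS and 573 in wt untreated. Nearest to Plaur were Tmem189 (0.19), Aasdhppt (0.22) and D17Wsu92e (0.23). Nearest to Serpine2 were Trib3 (0.15), Mmp14, the membrane-anchored metalloproteinase (0.18), and Pmepa1 (0.21). Mmp14 averaged 1210 in MyD88ko with LPS, 1101 in MyD88ko untreated, 864 in wt with LPS and 684 in wt untreated. Genes with a small spread lie near each other by this measure, and it says nothing of shared control.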

How the data were processed

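The authors deposited 4 tables of 6 samples each, and each sample stands in a pair of them. TopHat2, Bowtie2, DESeq and mm10 appear, with neither version nor role, in the submitters' processing notes. The deposited values used here are scores: per the file headers, normalized counts, all whole numbers; another deposited column divides them by a length per gene. Each table also gives the authors' p-value, its adjusted form and a deposited ratio (fold) of group means after adding 1. Where 2 tables gave a value (166719 values), 0 differed.

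Joining by gene identifier left 13951 genes with all 12 values and normalized totals of 3598095 to 4319615. A gene was tested if any group's mean reached 10, with limma 3.58.1 (R 4.3.3; trend, robust; log2(value + 1); 8 residual degrees of freedom; two-sided). Read numbers were estimated over the genes with all 12 values, by size factors (0.634 to 1.29) read from values that rounding skips. These hold up to a common factor and least surely where near 1. Positions are as deposited; those of Plau differ slightly in GENCODE M21. Ratios within libraries were compared by exact permutation (scipy 1.17.1).

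Named were the members, Myd88, up to 4 called genes of smallest p per list in each of the 5 planned comparisons, and the 3 nearest genes per member (mean of 20 or more, no predicted names). Serpini1, Hgf and Pdgfc were named in addition, after their values were seen. Other list genes called only in the 2 added averages were not named. One gene of the partner list is not reported here. The members and lists were chosen with earlier results of these data known. Alternatives were TMM-like and quantile rescaling, pseudocounts of 0.5 and 5, no filter, a minimum mean of 50, a fit of the compared groups alone, no trend, a replicate block, and leaving out each library or wt untreated replicates 1 and 3 together. The scripts were tested on simulated data, where 17% to 32% of genes changed 2-fold were called in the 4 pairwise comparisons.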

Additional observations from a re-analysis of the deposited data

How the results depend on the processing

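Of 301 values of the members recomputed under other settings, 289 kept their direction and their side of the threshold, and 323 of 336 did so when 1 library was left out. Most of these values were not called in the main fit. A pairwise difference also cannot move when the library left out is in neither compared group. The tallies therefore say little about how firm a call is. When the fit held the compared groups alone, the call of Plat for LPS in MyD88ko was lost (−1.06, adjusted p = 0.0517). Same-numbered libraries did not deviate together throughout (correlations of −0.11 to 0.17 across genes); all 6 libraries correlated best with their own number in the wt LPS comparison, and 2 or 3 of 6 in the others. With the replicate block, 2389 and 763 genes were called for LPS in wt and MyD88ko, 278 and 206 between the genotypes untreated and with LPS, and 2 for the difference of responses; Plat stayed called in both comparisons and the average LPS response of Serpine2 (0.42) became called (adjusted p = 0.049). With the block and the compared groups alone, chosen after seeing the data, both Plat calls were lost (−1.06, 0.0803, and −1.41, 0.078) and 104 genes were called between the genotypes with LPS; the cause was not tested.

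Without trend, 425 genes were called for LPS in MyD88ko, 74 and 112 between the genotypes untreated and with LPS, 0 for the difference of responses and 294 for the average genotype difference. The difference of responses had 4 called genes after quantile normalization and 0 with a pseudocount of 0.5 or a mean of at least 50 (limma; main count 2). The average LPS response of Plaur was −0.0078 with TMM-like rescaling and −0.025 with quantile normalization, where that of Serpine2 was 0.55 (adjusted p = 0.0294). With wt untreated replicates 1 and 3 both left out, 973 genes were called for LPS in wt, 36 between the untreated genotypes, 14 for the difference of responses and 176 for the average genotype difference. The signs then turned for Plaur (0.10 for LPS in wt, 0.010 between untreated genotypes, 0.15 on average) and the Serpine2 difference of responses (0.28).

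Leaving out 1 library gave 1570 to 2722 called genes for LPS in wt, 337 to 791 for LPS in MyD88ko, 64 to 416 and 85 to 196 between the genotypes untreated and with LPS, 0 to 44 for the difference of responses and 303 to 660 for the average genotype difference. The lowest of these came without wt LPS replicate 1 for LPS in wt and without MyD88ko untreated replicate 2 for LPS in MyD88ko. The log2 difference of Plat for LPS in MyD88ko ranged from −1.22 to −0.95. That of Serpine2 ranged from 0.25 to 0.78 for LPS in wt, −0.48 to 0.054 for the difference of responses, 0.36 to 0.63 for the average genotype difference and 0.27 to 0.54 for the average LPS response. The averages of Plaur ranged from −0.19 to 0.028 for genotype and −0.10 to 0.12 for LPS. The Plau to Serpine2 ratio for LPS in MyD88ko ranged from −0.30 to 0.65. Plau rests on an estimated 4 to 35 reads per library, which limits its precision.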
